A study of Mus musculus with 310 samples.

Results

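The hair follicle bulge is the niche at the base of the permanent follicle where slow-cycling stem cells rest between rounds of hair growth. Its cells are keratinocytes of the outer root sheath that carry transcription factors such as Lhx2, Sox9 and Nfatc1, secrete antagonists of Wnt and BMP signals and lie on a specialised basement membrane. In mouse skin Cd34 and Lgr5 are widely used to mark them, Cd34 in the bulge proper and Lgr5 in its lower part and in the hair germ.

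Here 57 of 310 deposited entries, each counted as a single cell (18.4%, Wilson 95% interval 14.5 to 23.1), were scored as bulge cells. They were chosen by expression in these same cells: each cell was scaled to 10000 reads, each gene was z-scored over the 310 cells, and a cell went to the set of 4 markers with the highest mean z among 6 sets. The bulge set was Postn, Krt15, Cxcl14 and Lhx2. The other 5 sets stood for infundibulum, sebaceous gland, interfollicular differentiated, basal and junctional zone cells. Levels in bulge-scored against other cells are therefore a description without a test. The Wilson interval above treats cells as independent, though the share by replicate ran from 7.14% to 28.9%.

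The cells were tdTomato+ keratinocytes sorted from tail epidermis of mice that carried Lrig1-EGFP-ires-CreERT2 together with the Cre reporter Rosa26-fl/STOP/fl-tdTomato, on a mixed CBA C57BL/6 background. The mice had received 1 topical dose of hydroxytamoxifen, so the label follows cells that expressed Lrig1 at that time and their descendants. Other bulge cells were outside the sort. In the study's long-term experiment some labelled mice were wounded, while a control group was left without a wound. All carry a 38-week label, and the groups are 38w (replicates RepI and RepL, 145 cells) and 38wUW (RepM and RepN, 165 cells). The labels do not spell out UW, nor which group was wounded, and nothing there says whether a replicate is 1 animal, so p-values between groups measure only the spread between these samples. Of the 310 entries, 13 carry the suffix IDTILL and 2 the suffix MBULK, which the labels do not explain, and 11 wells of plate C114 hold 2 entries, 1 with and 1 without a suffix. Within these wells the 2 entries had a Pearson r of 0.38 to 0.601 over genes, in 8 of 11 wells above that of the first entry with any other cell of the plate, so some may be 1 cell counted 2 times. No bulge-scored cell has a suffix, and 1 shares its well with another entry, which was scored basal. Bulge-scored cells held 11711 to 721564 reads (median 65187) and 2031 to 5840 genes (median 3150).

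The score that chose the 57 cells ranged widely among them. Their bulge score ranged from -0.272 to 2.49 with a median of 1.22, while that of the other 253 cells ranged from -0.592 to 1.20 with a median of -0.413, so the ranges overlap. The score exceeded that of the next set by a median of 1.10. Only 2 cells led by under 0.25, and 5 other cells lay within 0.25 of joining. The cells just inside led by 0.0640 over the junctional zone set, 0.243 over the basal set and 0.252 over the sebaceous gland set. Those just outside had differences of -0.00154 to the junctional zone, -0.0929 to the infundibulum and -0.116 to the sebaceous gland set. A bulge score below 0 was found in 2 of the 57, which led only because their other scores were lower still. The next set was the junctional zone for 26 of the 57 cells, basal and sebaceous gland for 11 each, infundibulum for 9, and interfollicular differentiated for 0.

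**Figure D1:**
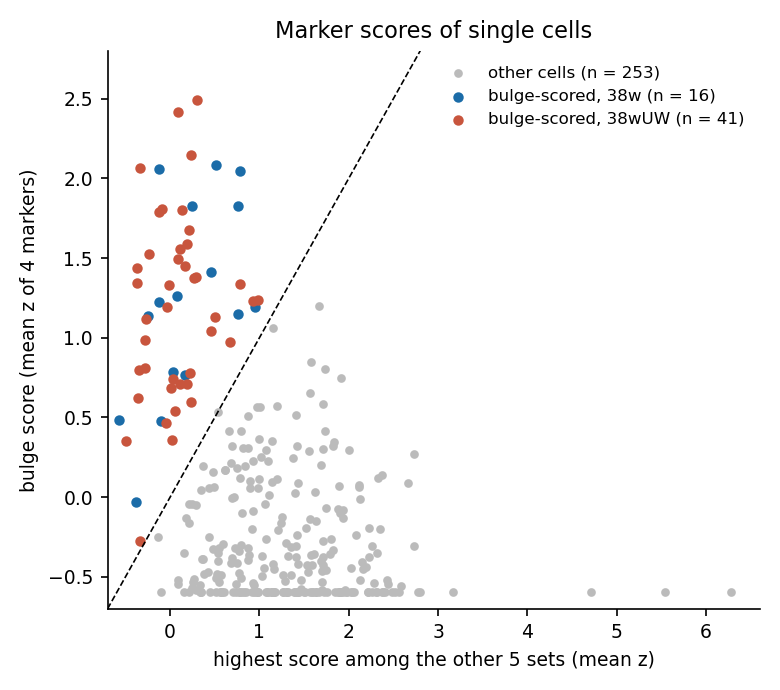
Bulge score (vertical axis, mean z of 4 markers) against the highest score among the other 5 sets (horizontal axis, mean z) for each of the 310 cells; the dashed line marks equal scores. The 57 coloured points above the line are the bulge-scored cells, 16 of 38w and 41 of 38wUW, and few points of either kind touch the line.

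The markers themselves were found in most, but not all, of the chosen cells. All 4 had a read in 26 cells, 3 in another 26, 2 in 4 and 1 in 1 cell, against 3 of 253 other cells with all 4. Lhx2, a LIM homeobox factor of hair follicle stem cells (chromosome 2, 38339281 to 38369733, GRCm38), was the most restricted. It had a read in 49 of 57 bulge-scored cells and in 2.77% of the others, with a mean of 249 CPM (reads of a gene scaled to the total of its cell) against 2.91, and 0 in the junctional zone and basal sets. CPM here are means over cells and are not scaled by gene length, so they are compared within a gene and not between genes. Values by replicate are means over bulge-scored cells in the order RepI, RepL (both 38w), RepM, RepN (both 38wUW) throughout. Those of Lhx2 were 208, 194, 196 and 321 CPM, with RepN above the other 3.

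Postn, which encodes the matrix protein periostin (chromosome 3, 54361109 to 54391037), had a mean of 2181 CPM in bulge-scored cells against 230.5 in others. By replicate it was 384, 2644, 1245 and 3007 CPM, with the lowest and the next-highest value both in 38w. Junctional zone cells held 765 CPM. The study itself also takes Postn as a marker of the infundibulum. In cells of the infundibulum set its mean was 27.3 CPM here. Krt15, a keratin of basal and bulge keratinocytes (chromosome 11, 100131758 to 100135928), had 2200 CPM against 386, and 3709, 3288, 2103 and 1454 CPM by replicate. Both 38w means of Krt15 were above both 38wUW means. This order was not tested, and the share of all genes with such an order was not counted. Cxcl14, a chemokine of skin epithelium (chromosome 13, 56288643 to 56296551), had 211 CPM against 21.7, and 793, 132, 79.5 and 220 by replicate. A single cell supplied 25.5% of its summed CPM. No single marker carried the choice: with Postn, Krt15, Cxcl14 or Lhx2 left out, 57, 59, 57 and 56 cells were chosen, of which 55, 55, 55 and 52 were among the 57.

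The label was checked with 12 bulge genes that the rule had not used: Cd34, Lgr5, Sox9, Nfatc1, Tcf7l1, Nfib, Col17a1, Itga6, Npnt, Sfrp1, Dkk3 and Id2. Each was found in a larger share of bulge-scored than of other cells, before and after thinning every cell to 20000 reads, a depth reached by 46 bulge-scored and 231 other cells. At least 6 of the 12 were found in 80.7% of bulge-scored cells and 30.0% of others. These others pool all other sets, with 62 infundibulum and 48 interfollicular differentiated cells. The basal and junctional zone sets were not counted apart. Cd34, a sialomucin of the stem cell surface (chromosome 1, 194938819 to 194961279), had a read in 17 of 57 cells (29.8%) against 4.35% of the others, and in 26.1% against 2.16% after thinning. Its mean was 49.1 CPM against 1.31. Lgr5, an R-spondin receptor (chromosome 10, 115450311 to 115587780), was found in 14 of 57 cells (24.6%) against 5.14%, and in 21.7% against 4.76% after thinning. Cd34 or Lgr5 was found in 42.1% of bulge-scored cells, so either gene alone would have missed most of them.

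Transcription factors of the bulge were shared more widely. Sox9, required for hair follicle stem cells, was found in 51 of 57 cells at a mean of 456 CPM, against 112 in the others, 136 in junctional zone cells and 25.8 in basal cells. Its replicate means were 269, 329, 498 and 525 CPM. Nfatc1, linked to stem cell quiescence, had 235 CPM against 102.1. Tbx1 was found in 22 of 57 cells against 6.72% of others, and Creb5 in 37 of 57 against 18.97%. The hedgehog effectors Gli1 and Gli2 were low, at 4.28 and 14.5 CPM, yet found in 8 and 10 of 57 cells against 0.395% and 1.19% of others. Of the 25 listed factors with a read in at least 20% of bulge-scored cells, 23 were higher in them and 13 by over 2-fold. Among all 5980 genes so detected, the background of every such list, 3634 were higher and 843 (14.1%) by over 2-fold. Their median log2 ratio was 0.17, against 1.11 for the factors. Klf5 and Foxc1 were the exceptions, at 55.8 against 65.7 CPM and 31.7 against 44.8 CPM. Sox21, found in 2 of the 57 cells and 30.4% of others, stood outside this count.

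**Figure D2:**
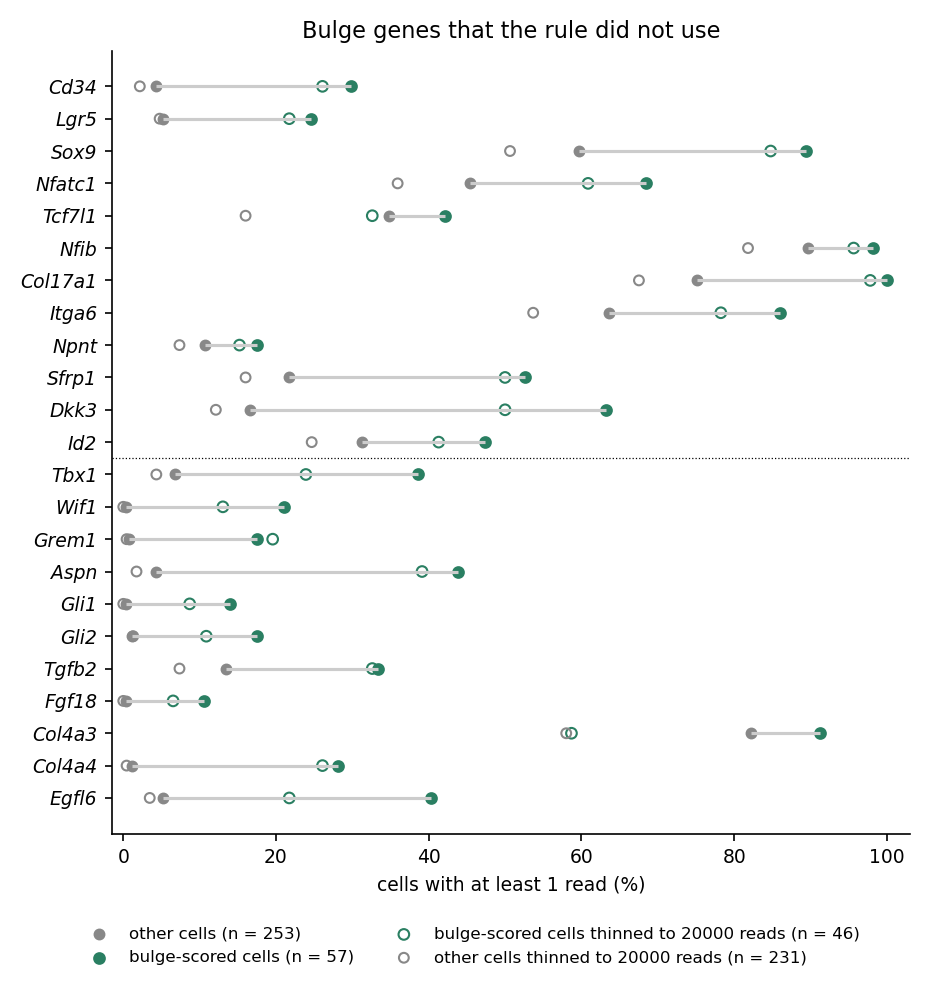
Share of cells with at least 1 read (horizontal axis, %) of bulge genes that did not enter the rule, for bulge-scored cells (green, filled for all reads and open after thinning to 20000 reads) and other cells (grey, filled and open likewise). The 12 genes of the label check stand above the dotted line and further genes below it; Wif1, Grem1 and Gli1 were found in under 1% of other cells.

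The bulge-scored cells also held the secreted antagonists known from this niche. Sfrp1, a Wnt-binding protein, had a mean of 296 CPM against 24.9 in the others, and 532, 166, 405 and 229 CPM by replicate. Dkk3 had 181 CPM against 18.1. Shisa2, which holds back Wnt and FGF receptors in the cell, was found in 36 of 57 cells against 5.14% of others, at 210 against 8.49 CPM. Wif1, a Wnt inhibitor, was found in 12 of 57 cells and 0.395% of others, and Grem1, a BMP antagonist, in 10 of 57 and 0.791%. Wif1 and Grem1 had no read in the 5 cells of RepI. In contrast, Sostdc1, which inhibits both pathways, was lower than in other cells, at 35.6 against 100.9 CPM, and was highest in the junctional zone set at 245 CPM. Of the 10 antagonists detected in at least 20% of cells, 8 were higher and 6 by over 2-fold, with a median log2 ratio of 2.58. The other lower one was Ctnnbip1.

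Ligands were sparse. Of 21 measured ligands and targets of the Wnt, BMP, FGF, TGF-beta and hedgehog pathways, 5 reached 20% of bulge-scored cells. Tgfb2 had 133 CPM against 8.40, with replicate means between 115 and 156 CPM. Bmp6 was found in 12 of 57 cells against 2.77%, and Wnt7b in 15 of 57 against 8.70%. Wnt4 was common but not raised, at 114.05 against 133.5 CPM, and the Wnt target Axin2 was found in 3 of 57 cells. Fgf18, a ligand known to hold the follicle at rest, was found in 6 of 57 cells against 0.395%.

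Receptors and surface genes were higher as a group: 11 of the 11 detected members were higher and 10 by over 2-fold, with a median log2 ratio of 1.69. Fgfr1 was found in 46 of 57 cells at 111 CPM against 18.6, and its replicate means lay between 102.6 and 128.3 CPM. Lgr4, the relative of Lgr5, had 310 CPM against 95.5. Ptch1, the hedgehog receptor and target, had 65.5 against 12.4 CPM, with replicate means of 35.4, 1.93, 68.0 and 99.1 CPM. Between the groups its adjusted p was 0.87 (edgeR), and RepL held only 2 reads of it.

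Matrix genes marked the cells as well. Aspn, which encodes the small proteoglycan asporin (chromosome 13, 49544443 to 49567565), was found in 25 of 57 cells at 273 CPM and in 4.35% of others at 2.27 CPM. Egfl6, deposited in the basement membrane of the upper bulge, was found in 23 of 57 cells against 5.14%. Of the collagen IV chains, Col4a4 was found in 16 of 57 cells against 1.19%, and Col4a3 had 376 CPM against 97.6, whereas Col4a1 and Col4a2 were found in 4 and 7 cells. The hemidesmosome collagen Col17a1 had a read in all 57 cells, but its level of 609 CPM lay between 450 CPM in all others and 987 CPM in the basal set. Itgb4 and Plec of the same anchoring complex were lower than in other cells, at 35.9 against 61.3 and 138 against 193 CPM. Of 29 detected matrix and anchoring genes, 26 were higher and 15 by over 2-fold.

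The 25 leading genes by ratio of means, among those read in at least 50% of the bulge-scored cells and higher in them on each of the 3 plates with 5 or more such cells, began with Lhx2, Sema3e, Ccn2, Serpinb11 and Shisa2. Sema3e, an axon guidance ligand, had 288 CPM against 4.66, with 77.2, 142, 209 and 454 CPM by replicate. Ccn2, a matricellular target of YAP signalling, had 112 against 2.10 CPM, and only 5.99 CPM in RepI. Serpinb11, a clade B serpin, had 456 against 18.02 CPM. Next came Creb5, Vwa2, Sfrp1, Rflnb, Igfbp7, Dkk3, Cxcl14, Postn, Mgat4a and Col5a2, and then Phyhip, Fgfr1, Ank, Krt15, Ptn, Megf6, Pdzrn3, Alcam, Cpne8 and Pkd1. On all 5 plates 19 of the 25 were higher. Some of them were not restricted to the bulge set. In the dot plot by set, Ank, Pdzrn3 and Alcam were also found in many infundibulum cells, Postn, Krt15 and Ptn in junctional zone cells, and Igfbp7 in basal cells.

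**Figure D3:**
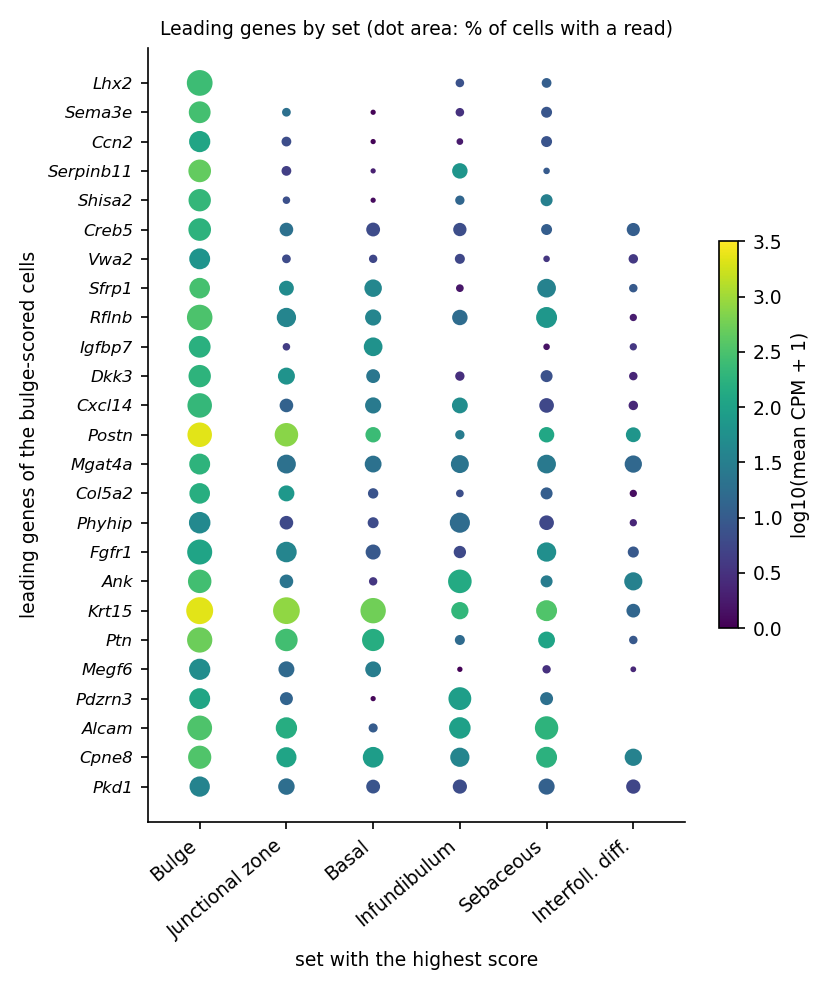
The 25 leading genes of the bulge-scored cells (rows, by falling ratio of mean CPM) in the 6 sets of cells (columns); dot area gives the share of cells with a read and colour the log10 of mean CPM + 1. Lhx2 had no dot in the junctional zone, basal and interfollicular sets, whereas Krt15 and Cpne8 were found in all 6.

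Several genes were far lower in bulge-scored cells. Outside the genes of the rule, Fam25c, Ly6d and Fgfbp1 were among those with the lowest ratios, out of genes read in at least 50% of the other cells. Fgfbp1, a secreted carrier of fibroblast growth factors, was found in 4 of 57 cells against 68.0% of others, and Ly6d, a surface protein, had 129.2 CPM against 1771. Krtdap, a gene of keratinocyte differentiation, had 513 against 3126 CPM. Krt14, which enters the rule through the basal set, had 1298 CPM against 8294, and 9224, 713, 543 and 450 CPM by replicate, far higher in RepI than in the rest. A single cell gave 46.001% of its summed CPM. Krt14 had a read in 46 of the 57 cells.

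Glycolysis enzymes were mostly lower. Of 10 detected, 2 were higher, 0 by over 2-fold, and the median log2 ratio was -0.75. The summed mean of the list in bulge-scored cells was 4177, 729, 1007 and 1049 CPM by replicate. RepI held 5 of the 57 bulge-scored cells and 65 of the 253 others. The part of this uneven mix of replicates in the list contrasts was not tested. Eno1 had 49.4 CPM against 181 and Tpi1 46.5 against 146, while junctional zone cells lay as low, at 62.9 and 43.9. Immediate early genes went the other way: 15 of 18 were higher and 6 by over 2-fold. Their summed mean in bulge-scored cells was 5880, 8238, 6828 and 7296 CPM by replicate. Fos had 3111 CPM against 1307, and 2901, 3901, 2513 and 3217 CPM by replicate. Of 13 detected genes of quiescence and growth arrest 8 were higher, near the share over all genes (3634 of 5980). By over 2-fold 4 were higher and 1 was lower. Cdkn1b and Btg2 were higher, at 126 against 37.2 and 324 against 119.3 CPM, whereas Cdkn1a was lower at 44.8 against 109.1. Of 10 amino acid transporters, 5 were detected in at least 20% of cells and 3 were over 2-fold higher, among them Slc6a6, the taurine transporter, at 1214 against 514 CPM. Of 7 detected genes of the outer root sheath and hair germ 6 were higher and 2 by over 2-fold. Of 10 genes of the hypoxia response these numbers were 7 and 1, against 3634 and 843 of 5980 over all genes.

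Cycling cells were rare. Of 19 genes of G2 and mitosis, at least 10 had a read in 2 of 57 bulge-scored cells (3.51%, exact 95% interval 0.428 to 12.1) and in 18 of 253 others (7.11%, 4.27 to 11.01). These intervals overlap, and they treat cells of the 4 replicates as independent. In the other bulge-scored cells the highest number was 6, and 26 of the 57 had none.

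Markers of other skin cells were found in some of the bulge-scored cells. The fibroblast genes Col1a1, Col1a2, Pdgfra and Vim had means of 0.610, 4.15, 0.180 and 2.75 CPM in bulge-scored cells, though Col6a1 and Col6a2 had 39.2 and 10.5 CPM against 4.86 and 0.145 in the others. Of the 7 measured fibroblast genes the summed level ranged from 0 to 504 CPM per bulge-scored cell and from 0 to 285 CPM per other cell, with medians of 7.14 and 0, and the part of these and the following cell types in the values was not tested. Of 5 measured melanocyte genes the summed mean was 43.5 CPM against 23.4 in others, of 2 Merkel cell genes 11.9 against 2.29, of 2 muscle and pericyte genes 41.7 against 18.2, and of 3 immune genes 4.44 against 2.63. The highest sums in a bulge-scored cell were 537, 394, 369 and 169.5 CPM, and the medians were 0 in bulge-scored cells but for muscle and pericyte genes, at 12.01 against 0. Among defining markers H2-Aa of immune cells had no read, and Kdr of endothelium had a read in 1 cell. Pecam1 had a read in every one of the 310 cells, which makes it no marker of endothelium in this table. Krt75 of the companion layer was found in 3 cells, and no gene of the inner root sheath and hair shaft list reached 20% of the cells.

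The cells were also scored on the 14 marker lists that the study made from young cells, with the genes of the rule left out. The list of cluster 5, which the study calls the bulge niche, was the closest for 25 of the 57 cells (43.9%) against 2.37% of others. Its mean z was 0.45 in bulge-scored cells, 0.05 in junctional zone cells and 0.01 in basal cells. Of its 81 genes detected in at least 20% of bulge-scored cells, 75 were higher and 56 by over 2-fold, with a median log2 ratio of 1.52. By replicate these were 1 of 5, 4 of 11, 8 of 17 and 12 of 24 cells, at most 50% in each. The lists of clusters 6, 9 and 10 were closest for another 10, 9 and 7 cells. Cluster 6, the closest list for 17 junctional zone cells, had other levels: its 10 cells had no read of Cd34, 364 CPM of Aldh3a1, a junctional zone marker of the rule, and 409 CPM of Tgfb2, against 11 of 25 cells with Cd34, 54.1 CPM and 88.6 CPM in those closest to cluster 5. In the 7 cells closest to cluster 10, Postn had a read in 1 and Nfatc1 in 1, while Krt15, Sox9 and Krt5 had reads in all 7.

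Within the 57 cells, Aspn and Lgr5 were never found together. This pair was singled out after its values had been seen, so it is given without a test. A read of Aspn was found in 25 cells, a read of Lgr5 in 14 and neither in 18, and 0 cells held both. After thinning to 20000 reads the numbers were 18, 10 and again 0 with both. By replicate, RepI held 2 cells with Aspn and 1 with Lgr5, RepL 5 and 1, RepM 5 and 6, and RepN 13 and 6. With 1 cell with Lgr5 each, RepI and RepL say little about a split. The cells with Lgr5 had a median of 106032 reads and 23.3% mitochondrial reads, against 63955 and 13.5% in those with Aspn, and the part of these differences in the split was not tested. Among the other 253 cells 9 had reads of Aspn alone, 11 of Lgr5 alone and 2 of both.

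**Figure D4:**
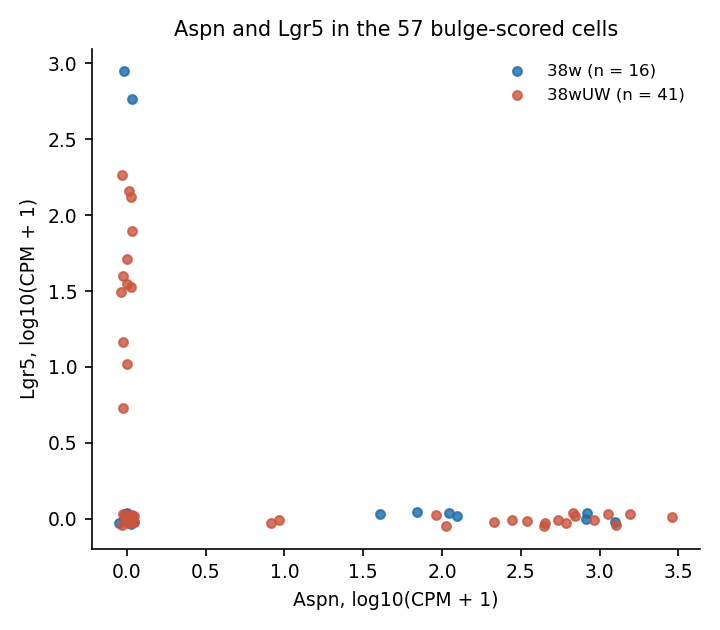
Levels of Aspn (horizontal axis) and Lgr5 (vertical axis), both as log10 of CPM + 1, in each of the 57 bulge-scored cells, coloured by group, with slight random displacement so that overlapping points can be seen. The 25 cells with Aspn lie along the horizontal axis and the 14 with Lgr5 along the vertical one, and no point lies between.

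Other bulge genes differed between the cells with Aspn and those with Lgr5. Postn was found in all 25 cells with Aspn, at a mean of 3140 CPM, and in 9 of the 14 with Lgr5, at 1543 CPM. Sema3e had 531 against 89.7 CPM, Nfatc1 364 against 141, Ccn2 177 against 33.1, and Egfl6 100.4 against 11.1. Thbs2 was found in 17 of 25 against 2 of 14 cells. The order was the opposite for Krt14 (402 against 1341 CPM), Ptch1 (54.3 against 124), Sfrp1 (218 against 479) and Npnt, found in 2 of 25 against 6 of 14 cells. Mmp2 was found in 4 of 25 against 9 of 14 cells and Hoxd11 in 5 of 25 against 10 of 14. Cd34 was found in 7 of 25 against 7 of 14 cells. Sox9 and Lhx2 did not separate them by share of cells. Sox9 had reads in 23 of 25 and 13 of 14 cells, and Lhx2 in 21 of 25 and 12 of 14. The 18 cells with neither gene lay near those with Lgr5 for Postn (1347 CPM), Sema3e (104) and Nfatc1 (130). They lay nearer those with Aspn for Ptch1 (35.6 CPM), Sfrp1 (262) and Npnt, found in 2 of 18. For Krt14 they lay above both, at 2510 CPM. The list of cluster 5 was the closest for 11 cells with Aspn and 8 with Lgr5, and the other 14 cells with Aspn were closest to clusters 6 (6 cells), 9 (5), 3, 10 and 11 (1 each).

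Across the 57 cells, Postn and Ccn2 had a Spearman rho of 0.64, and 0.73 and 0.70 within RepM and RepN. Sema3e and Aspn had 0.53, Krt5 and Krt17 0.55, and Krt14 and Nfatc1 -0.49. Krt15 and Postn, both markers of the rule, had 0.04. These are descriptions over cells that share plates, and reads per cell had a rho of 0.04 with Postn, -0.10 with Ccn2, -0.25 with Krt15 and -0.29 with Krt14.

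The share of bulge-scored cells was compared between the groups over the 4 replicates. It was 5 of 70 cells in RepI (7.14%, Wilson 95% interval 3.09 to 15.7), 11 of 75 in RepL (14.7%, 8.39 to 24.4), 17 of 82 in RepM (20.7%, 13.4 to 30.7) and 24 of 83 in RepN (28.9%, 20.3 to 39.4). These intervals treat the cells of a replicate as independent. Both 38w shares were below both 38wUW shares. The means were 10.9% ± 5.32 (SD, n = 2) in 38w and 24.8% ± 5.79 (SD, n = 2) in 38wUW, a difference of -13.9 percentage points (exact two-sided permutation test, p = 0.3333, the smallest that 2 against 2 replicates can give). Within the batch tags, the difference was -15.9 points in Replicate1 and -13.2 in Replicate2, and within the alternative tags -7.69 and -21.4. Shares of a sort add up to 100%, and over the same replicates the basal set took 38.6% and 34.7% in 38w against 7.32% and 8.43% in 38wUW, and the junctional zone set 8.57% and 5.33% against 20.7% and 20.5%. Without plate C114, whose bulge-scored cells had a median of 27.1% of reads in genes of ribosomal proteins against 2.09% to 4.79% on the other plates, the difference was -14.5 points.

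**Figure D5:**
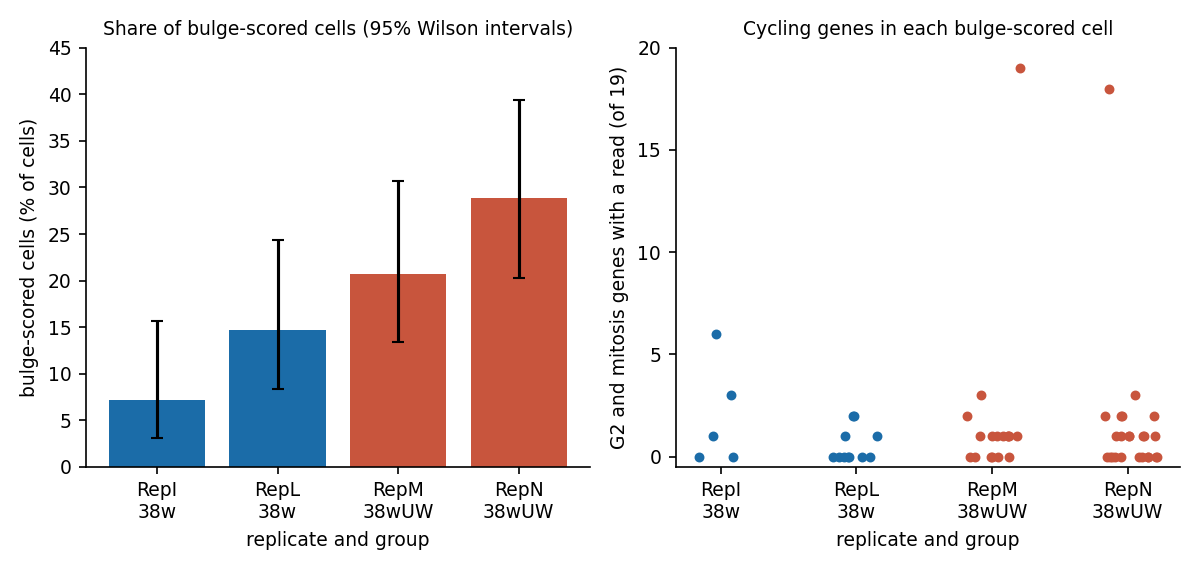
Left, share of bulge-scored cells (% of a replicate's cells, bars from 0, 95% Wilson intervals) in the 4 replicates. Right, number of 19 G2 and mitosis genes with a read in each bulge-scored cell; the 2 cells at 18 and 19 genes, 1 each in RepM and RepN, stand apart from the rest, which have 6 or fewer.

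Between the groups, no gene passed the threshold in the bulge-scored cells. Counts were summed over the cells of each replicate, and 0 of 7272 genes (0%) had an adjusted p under 0.05 (edgeR quasi-likelihood test with Benjamini-Hochberg adjustment). At an unadjusted p under 0.05 there were 482 (6.63%), of which 91 (1.25%) were higher and 391 (5.38%) lower in 38w, and DESeq2 called 131 of 6567 (1.99%). Leaving out RepI, with 5 cells, gave 166 calls of 8979 genes and leaving out RepL gave 395 of 9561, with 46 genes on both lists, while leaving out RepM or RepN gave 0. The bulge-scored cells of the groups also differed in mitochondrial reads, with medians of 4.23% and 8.88% in RepI and RepL and 22.3% and 18.2% in RepM and RepN, and its part in the values was not tested.

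The 10 genes of lowest p with mean log2 CPM from 5 upwards and without overlap of replicates were all lower in 38w, each at an adjusted p of 0.55 (edgeR). Idi1, an enzyme of isoprenoid synthesis, had 0 reads in RepI and RepL and 1027 and 356 in RepM and RepN, at least 172-fold lower in 38w against a floor of 3 reads over the group. Adamts1, a metalloprotease, had 0, 0, 189 and 1525 reads, at least 213-fold lower. Haus3 (at least 145-fold lower), Bhlhb9 (at least 99.6-fold) and the cohesin protector Sgo1 (at least 99.7-fold) also had no read in 38w. Few cells carried these sums. Idi1 had reads in 6 of 17 and 9 of 24 cells of RepM and RepN, and Adamts1 in 3 and 5. The bounds treat each read as independent, so the spread between cells lies outside them. Genes with no read in 38w entered the test through 38wUW alone, which set their direction in advance. The same holds for the other named genes, which had few reads in 38w. The top cell gave 58.2% and 79.5% of the Idi1 reads in RepM and RepN, and 65.6% and 83.2% of those of Adamts1.

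Scaper, a cyclin A-binding protein, had 4 reads in 38w and 3202 in 38wUW, a ratio of 299 (exact 95% counting interval 116 to 1096). Such intervals treat each read as independent, and copies made by PCR and the spread between cells and replicates lie outside them. For Scaper 1 cell gave 88.0% of the reads in RepM. Rnf138 and H60c had 1 read each in 38w, with ratios of 682 (122 to 26958) and 335 (60.03 to 13258). Top2a, the topoisomerase of dividing cells, had 6 reads against 1789 and a ratio of 111 (51.0 to 303), and Cenpf 3 against 1737 and a ratio of 216 (73.8 to 1048). In Top2a, 99.2% of the RepM reads and 68.0% of the RepN reads came from 1 cell, and in Cenpf 1 cell held all reads of each replicate that had any.

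Few cells also stood behind the cell cycle list. Of 25 cell cycle genes tested, 10 were lower in 38w at an unadjusted p under 0.05, against 5.38% of all genes, and 0 had an adjusted p under 0.05. A gene could enter the test through reads in 1 group alone, which sets its direction in advance. No read in 1 of the groups was found for 3 of the 25, and for 137 of all 7272 genes. These counts leave out genes that entered through 38wUW with few reads in 38w, such as Top2a with 6 and Cenpf with 3. The list median was a log2 fold change of -1.90, against 0.03 over all genes. Without the 2 cells with 10 or more G2 and mitosis genes, a choice made after seeing the data, 15 genes of the list were tested, 0 were lower and 1 higher at an unadjusted p under 0.05, and the median was -0.33. Both cells were picked for reads of such genes and are in 38wUW, so the removal acts on this list by construction. The study's lists of clusters 7, 8 and 11 had 17 of 80, 16 of 76 and 17 of 89 genes lower at an unadjusted p under 0.05, and 2 of 65, 3 of 69 and 4 of 82 without those 2 cells. They share 8, 11 and 8 of their genes with the cell cycle list.

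Genes of the bulge itself did not pass in either direction. Of the 89 tested genes of cluster 5, 2 were lower and 0 higher at an unadjusted p under 0.05, against 5.38% and 1.25% of all genes. The median log2 fold change of the cluster 5 genes was -0.33. Of 26 factors 1 was lower, Hoxd10 (log2 fold change -6.49 ± 2.40 SE, edgeR adjusted p = 0.56), and of 12 surface genes 1, Cd200. Cd200, an inhibitory ligand on bulge cells (chromosome 16, 45382135 to 45409053), had no read in the 16 cells of 38w and a read in 4 of 17 and 10 of 24 cells of RepM and RepN. Its pooled levels were 0, 0, 43.0 and 55.1 CPM, at least 33.6-fold lower in 38w (edgeR adjusted p = 0.55). That bound treats each read as independent, and the top cell gave 86.4% and 41.2% of the Cd200 reads in RepM and RepN. Cd200 and Hoxd10, with 0 and 1 read in 38w, entered the test through 38wUW alone, which set their direction in advance. Sox9 and Aspn had log2 fold changes of -0.01 ± 1.20 and -0.01 ± 1.24 (SE), and Lgr5 of 1.32 ± 1.61. With errors of that size a change of 2-fold could not have been detected. No gene of the antagonist, matrix, immediate early or growth arrest lists had an unadjusted p under 0.05. Of 11 glycolysis genes 1 was higher, Gapdh, against 1.25% of all genes. It had 2225 and 147 pooled CPM in RepI and RepL and 102.3 and 136 in RepM and RepN. In RepI 1 cell gave 81.1% of its reads.

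Whether the group difference itself differed between bulge-scored and other cells was tested with the replicate as a block. The other cells pool 5 sets whose shares differed between the groups. The basal set took 38.6% and 34.7% of all cells in RepI and RepL, and 7.32% and 8.43% in RepM and RepN. The part of this mix in the difference of differences was not tested. None of 11501 genes (0%) had an adjusted p under 0.05 by edgeR, 626 (5.44%) had an unadjusted p under 0.05, of which 150 (1.3%) had a positive and 476 (4.14%) a negative difference and 4 were genes of the rule, and DESeq2 called 120 of 8379 (1.43%). The lowest p belonged to Spink5, an inhibitor of epidermal proteases, with a difference of log2 fold changes of 6.65 ± 1.12 (SE, edgeR adjusted p = 0.15). In bulge-scored cells it had 3011 and 210 pooled CPM in RepI and RepL and 44.95 and 44.85 in RepM and RepN, and in other cells 135, 159, 1358 and 973 CPM. The order of the groups was thus opposite, but 1 cell gave 99.8% of the RepI reads. The next genes on that side were Zfp930, Cald1, Tspan2 and Tcaf2 (adjusted p between 0.44 and 0.55), and on the other Ccnb2, Haus3, Scaper, Cenpf and Bhlhb9 (0.20 to 0.24). In RepI and RepL, 1 cell each held all reads of Zfp930 and of Tcaf2.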

How the data were processed

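Estimated counts per gene for 310 entries, each counted as 1 cell, were used as deposited. The authors mapped Smart-seq2 reads (no molecular identifiers) to the Ensembl mouse transcriptome (GRCm38) with Salmon 0.13.1. The deposited estimated counts are not normalized and hold 14068 genes. No doublet caller was run and no further cells were removed.

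Groups and replicates were taken from the labels, and cells were scored in Python 3.11.15. Counts of the bulge-scored cells were summed per replicate (at least 5 cells), rounded, and tested with edgeR 4.0.16 (TMM, filterByExpr, quasi-likelihood F-test, Benjamini-Hochberg, threshold 0.05). DESeq2 1.42.0, other size factors, no low-count filter, thinning, a score margin, left-out replicates and batch tags as blocks were alternatives. The code was tested on simulated counts. Genes of the rule stayed in the fits (18 in the group fit, 24 in the other), but no test of them is used. Log2 ratios of mean CPM used a pseudocount of 1. Leading genes were the 25 largest ratios among genes read in 50% of bulge-scored cells and higher on each plate with 5 such cells. Group genes were the 10 of lowest p, as fewer than 10 passed, and up to 5 each way for the difference of differences. Coordinates are from GENCODE on GRCm38. The members and lists were chosen with earlier results of these data known.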

Additional observations from a re-analysis of the deposited data

How the results depend on the processing

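The share of bulge-scored cells stayed lower in 38w under every alternative run, with differences of -17.7 to -10.2 points without RepL or RepI and -18.0 to -9.83 points without RepM or RepN, and -14.5 points with either batch tag as a replicate block. The count of genes changed between the groups, 0 by edgeR, was 131 with DESeq2, 1 without the low-count filter, 146 with a margin of at least 0.25 and 61 with cells thinned to 20000 reads. Both of these drop RepI, which then falls below 5 cells. With every replicate kept, chosen after seeing the data, both gave 0. Leaving out 1 replicate gave 0 to 395, where the lone sample is assumed to vary like the others. Plates as units gave 0 genes with the batch tag as replicate block, 0 with the alternative tag and 0 with no block. Deviations of the plates from their group means had r = -0.02 by the batch tag over genes. Each group gave a single difference between plates, with plate C118 of RepI left out. This r therefore cannot decide whether the tags pair the samples. For the difference of differences, 0 became 120 with DESeq2, 27 without the filter, 6 with the margin and 0 to 7 without 1 replicate. Cenpf turned to 4.52 there without the 2 cycling cells. Of the other values of named genes, 117 and 100 kept direction and side of the threshold in the 2 comparisons, and 48 and 19 kept direction and passed it. Leaving out the 15 entries with a name suffix left the group test as it was, since none is bulge-scored, and gave 0 genes for the difference of differences, an alternative added after seeing the data. The shares of bulge-scored cells were then 8.77%, 14.9%, 20.7% and 29.3%. The gene tests rest on 16 cells in 38w, 5 of them in RepI.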
